A study of Mus musculus with 16 samples.

Results

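The 40 mouse genes described here encode ligands, receptors, secreted binding proteins, intracellular inhibitors and target proteins of the bone morphogenetic protein (BMP) and transforming growth factor beta (TGF-beta) pathways. They were picked by gene symbol from a table of 56748 genes, and each symbol matched 1 row. The list was chosen with earlier results of these data known. Shares of its genes beside those of all genes therefore describe the list and are no independent support. The values come from bulk RNA sequencing of embryos at E11.5, an embryonic day of limb and tail outgrowth. The 4 groups were Ednrb-/- caudal region, WT (Ednrb+/+) caudal region, Ednrb-/- trunk region and WT trunk region, with 4 libraries described as biological replicates in each. Ednrb encodes the endothelin receptor B, a receptor needed by pigment cell precursors and by the neural crest cells of the gut, and the series asks about the local surroundings of pigment cells. The mutation is called targeted in the study's title. The strain, the allele, the level at which the body was divided, and whether a library held 1 embryo or several were not stated in the labels or series text. The p-values therefore measure the spread between libraries, which may be partly technical.

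Levels are FPKM, fragments per kilobase of gene length and scaled to the library total used by the authors. That total was 0.9486 to 0.9973 of the reads in listed genes in Ednrb-/- caudal and 1.013 to 1.035 in WT caudal libraries. In the trunk it was 0.9945 to 1.006 in Ednrb-/- and 1.02 to 1.035 in WT libraries. Median-of-ratios size factors over these totals were 0.998 to 1.002, so that scaling, tried as an alternative, could change little. The libraries held 34883821 to 43444905 reads in listed genes. Ednrb, the check of the labels, lay between 1.59 and 3.44 FPKM in Ednrb-/- caudal libraries, against 26.2 to 33.5 FPKM in WT caudal libraries. In the trunk it lay between 3.37 and 4.80 FPKM in Ednrb-/- libraries, against 35.8 to 41.8 FPKM in WT libraries. The groups did not overlap. Libraries with high Xist and low Y-linked RNA numbered 0 in Ednrb-/- caudal, 1 in WT caudal, 1 in Ednrb-/- trunk and 2 in WT trunk. In 3 further libraries (Ednrb-/- caudal replicate 3, WT caudal replicate 2 and Ednrb-/- trunk replicate 3) Xist and the Y-linked gene Ddx3y both reached 5 FPKM, and counts are also given without them.

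Ligands of this family are secreted dimers that bring together type I and type II receptor kinases on the cell surface. BMPs and most growth differentiation factors (GDFs) act mainly through SMAD1, SMAD5 and SMAD9, and TGF-betas, activins, GDF11 and myostatin mainly through SMAD2 and SMAD3. Both SMAD groups enter the nucleus with SMAD4. Secreted proteins such as noggin, chordin and follistatin bind ligands and keep them from the receptors, and SMAD6, SMAD7 and BAMBI dampen the signal in the receiving cell. In the embryo's trunk and tail, these signals pattern the dorsal neural tube and the mesoderm, restrain muscle growth, help to induce neural crest and shape cartilage.

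Start-site windows of 250 bases before to 50 bases after the annotated start were taken from RefSeq on GRCm38.p6. Such windows were found for 28 of the 40 genes, which had 31 windows in all. The 4 windows below belong to Mstn and Wfikkn1, whose genotype difference differed between the regions, to Id4, which fell in the caudal region, and to Smad6, a known target of BMP signaling. They were picked after the values had been seen. Sequences run 5′ to 3′ on the strand of the gene, and the capitals mark matches to 3 motifs known as SMAD-binding sequences: GTCTAGAC, GGCGCC and GTCTG, which reads CAGAC on the other strand. Other motifs were looked at before these 3 were kept. The windows are chr1:53061390-53061689 (plus strand) for Mstn, chr9:64022010-64022309 (minus strand) for Smad6, chr13:48260866-48261165 (plus strand) for Id4 and chr17:25880809-25881108 (minus strand) for Wfikkn1.
Mstn: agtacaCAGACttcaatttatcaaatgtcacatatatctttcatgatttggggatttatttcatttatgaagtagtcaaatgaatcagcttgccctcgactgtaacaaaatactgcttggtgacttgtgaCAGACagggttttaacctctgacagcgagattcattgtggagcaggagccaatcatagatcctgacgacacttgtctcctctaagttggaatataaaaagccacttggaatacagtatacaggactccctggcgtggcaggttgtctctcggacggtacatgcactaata
Smad6: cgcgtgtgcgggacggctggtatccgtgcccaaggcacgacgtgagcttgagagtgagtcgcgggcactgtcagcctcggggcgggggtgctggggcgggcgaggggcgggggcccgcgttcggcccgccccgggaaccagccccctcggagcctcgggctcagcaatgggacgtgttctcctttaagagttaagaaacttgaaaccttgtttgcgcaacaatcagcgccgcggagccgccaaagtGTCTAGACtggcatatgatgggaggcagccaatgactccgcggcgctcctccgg
Id4: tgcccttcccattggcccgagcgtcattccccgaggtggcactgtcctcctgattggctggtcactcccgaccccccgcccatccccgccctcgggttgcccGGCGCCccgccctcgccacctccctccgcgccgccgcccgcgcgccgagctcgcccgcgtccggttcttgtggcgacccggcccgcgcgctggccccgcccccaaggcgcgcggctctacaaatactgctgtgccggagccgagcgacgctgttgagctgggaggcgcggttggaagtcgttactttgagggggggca
Wfikkn1: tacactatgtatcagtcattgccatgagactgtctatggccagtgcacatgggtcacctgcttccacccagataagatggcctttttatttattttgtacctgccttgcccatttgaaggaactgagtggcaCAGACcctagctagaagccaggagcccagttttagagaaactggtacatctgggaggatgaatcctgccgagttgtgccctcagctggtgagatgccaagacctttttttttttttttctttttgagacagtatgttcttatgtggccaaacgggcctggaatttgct
The palindrome GTCTAGAC was found in 1 of the 31 windows, that of Smad6, where it began 4 bases before the start site, against 0.213% of 32851 mouse windows of the same length. The palindrome GGCGCC lay in 8 of the 31 windows, against 11.9% of all windows. Those 8 belong to Bmpr1a, Bmpr2, Chrd, Gdf10, Id2, Id4, Nbl1 and Tgfbr1. GTCTG on either strand lay in 16 of the 31 windows, against 49.6% of all windows. A match describes the letters only, and binding was not measured.

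Levels of the 40 genes spanned more than 3 orders of magnitude in these tissues. The genes for ID proteins, which bind and block basic helix-loop-helix factors and are classic BMP targets, included the most abundant one. Id3 averaged 81.1 ± 7.69 FPKM in Ednrb-/- caudal, 74.6 ± 4.09 in WT caudal, 70.8 ± 3.51 in Ednrb-/- trunk and 70.1 ± 4.39 in WT trunk libraries (SD, n = 4 each, as for all means below). Tgfbr1, the type I receptor of TGF-beta, came next, in the trunk at 53.2 ± 1.57 FPKM in Ednrb-/- and 47.4 ± 1.85 FPKM in WT libraries. Id2, Id1, Bmpr1a, Twsg1 and Gdf11 also lay above 15 FPKM in every group. Genes with a mean of at least 10 FPKM numbered 10 in Ednrb-/- caudal, 12 in WT caudal, 13 in Ednrb-/- trunk and 13 in WT trunk. Those with a mean under 1 FPKM numbered 8, 7, 8 and 5 in the same order. Inhbb, the activin beta-B subunit, was the lowest in Ednrb-/- caudal at 0.0365 ± 0.0275 FPKM (2 to 10 reads a library). The summed level of all 40 was 455.6 FPKM in Ednrb-/- caudal, 469.6 in WT caudal, 465.2 in Ednrb-/- trunk and 469.2 in WT trunk.

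**Figure D1:**
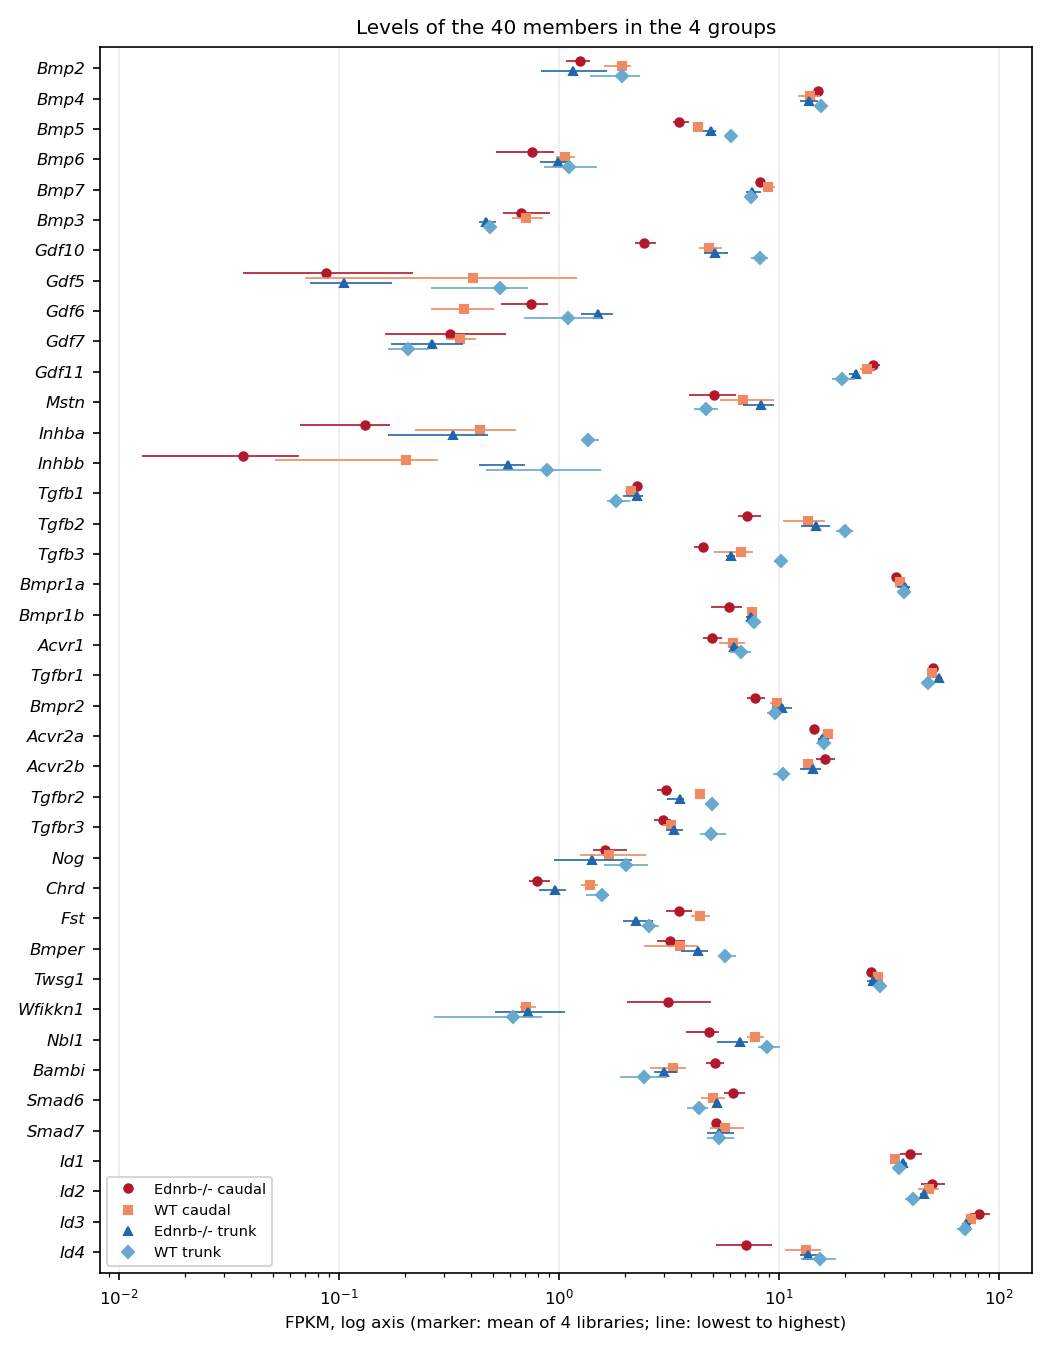
Mean FPKM of the 40 genes on a log axis, with a line from the lowest to the highest of 4 libraries, for Ednrb-/- caudal, WT caudal, Ednrb-/- trunk and WT trunk. Id3 is the highest gene in each group (81.1, 74.6, 70.8 and 70.1 FPKM), and Inhbb, Inhba, Gdf5 and Gdf7 lie at the low end.

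Of the 40 genes, 39 passed the filter of 0.5 FPKM in at least 4 libraries and entered the test, which was limma on log2(FPKM + 0.5) with p adjusted by Benjamini-Hochberg over 17205 genes and a threshold of 0.05. All differences below are on that log2 scale, Ednrb-/- minus WT unless another direction is given, with their standard error. In the caudal region 22 of the 39 genes passed (56.4%), against 41.6% of all genes tested. Of the 22, 6 rose and 16 fell in Ednrb-/- embryos, while over all genes 21.7% rose and 19.9% fell. In the trunk 17 passed (43.6%), against 25.1% of all genes tested. There 5 rose and 12 fell, against 12.2% and 13% of all genes. The median difference of the 39 genes was -0.12 in the caudal region and -0.09 in the trunk, and that of all genes was 0.0068 and 0.0040. The members' caudal median was -0.195 without Ednrb-/- caudal replicate 2, -0.188 without WT caudal replicate 3, -0.213 under TPM scaling and -0.189 under quantile normalization. The all-gene medians of these fits were 0.00621, 0.00671, -0.0803 and 0.0243, so TPM scaling lowered all genes and not the members alone. The members' trunk median was -0.0378 without Ednrb-/- trunk replicate 3, -0.0511 without WT trunk replicate 2, -0.0452 without WT trunk replicate 4, -0.0386 under quantile normalization and -0.0559 with a Y-linked covariate. The all-gene medians of these trunk fits lay between 0.00446 and 0.0156.

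The genotype groups did not overlap for 20 of the 40 genes in the caudal region (4 above and 16 below WT), against 37.3% of all genes tested, and for 17 in the trunk (5 above and 12 below), against 28.1%. Without the 3 libraries with mixed Xist and Ddx3y, 20 genes passed in the caudal region (6 rose, 14 fell) and 15 in the trunk (4 rose, 11 fell). Over all genes that fit called 3470 risen and 3084 fallen in the caudal region, and 1672 and 1924 in the trunk. Rescaling to TPM moved the caudal split to 3 risen and 20 fallen members, and that of all genes to 2219 risen and 5017 fallen, against 3732 and 3432 as deposited. Scaled to the reads in listed genes, 4 members rose and 19 fell in the caudal region. For all genes that scaling gave 2671 risen and 4352 fallen in the caudal region and 1642 and 2726 in the trunk, against 2092 and 2229 as deposited. In a bulk library, fewer cells of a type and less RNA per cell cannot be told apart.

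Fallen in both regions were 10 genes: Bmp2, Bmp5, Gdf10, Inhba, Tgfb2, Tgfb3, Tgfbr2, Chrd, Twsg1 and Nbl1. That is 25.6% of the 39, against 9.27% of all genes tested. As the list was chosen with earlier results known, such shares only describe it. Risen in both were Acvr2b and Smad6, or 5.13% of the 39 against 8.11% of all genes. None was called in opposite directions in this fit, against 0.372% of all genes, though Mstn was under some alternatives given below. A further 10 passed in the caudal region but not in the trunk (25.6%, against 23.9% of all genes, near the background). Another 5 passed in the trunk but not in the caudal region (12.8% against 7.36%), and 12 passed in neither (30.8% against 51%). A call in 1 region and not in the other is not shown to differ between them, and 3 genes passed the test of that difference itself, given further on.

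**Figure D2:**
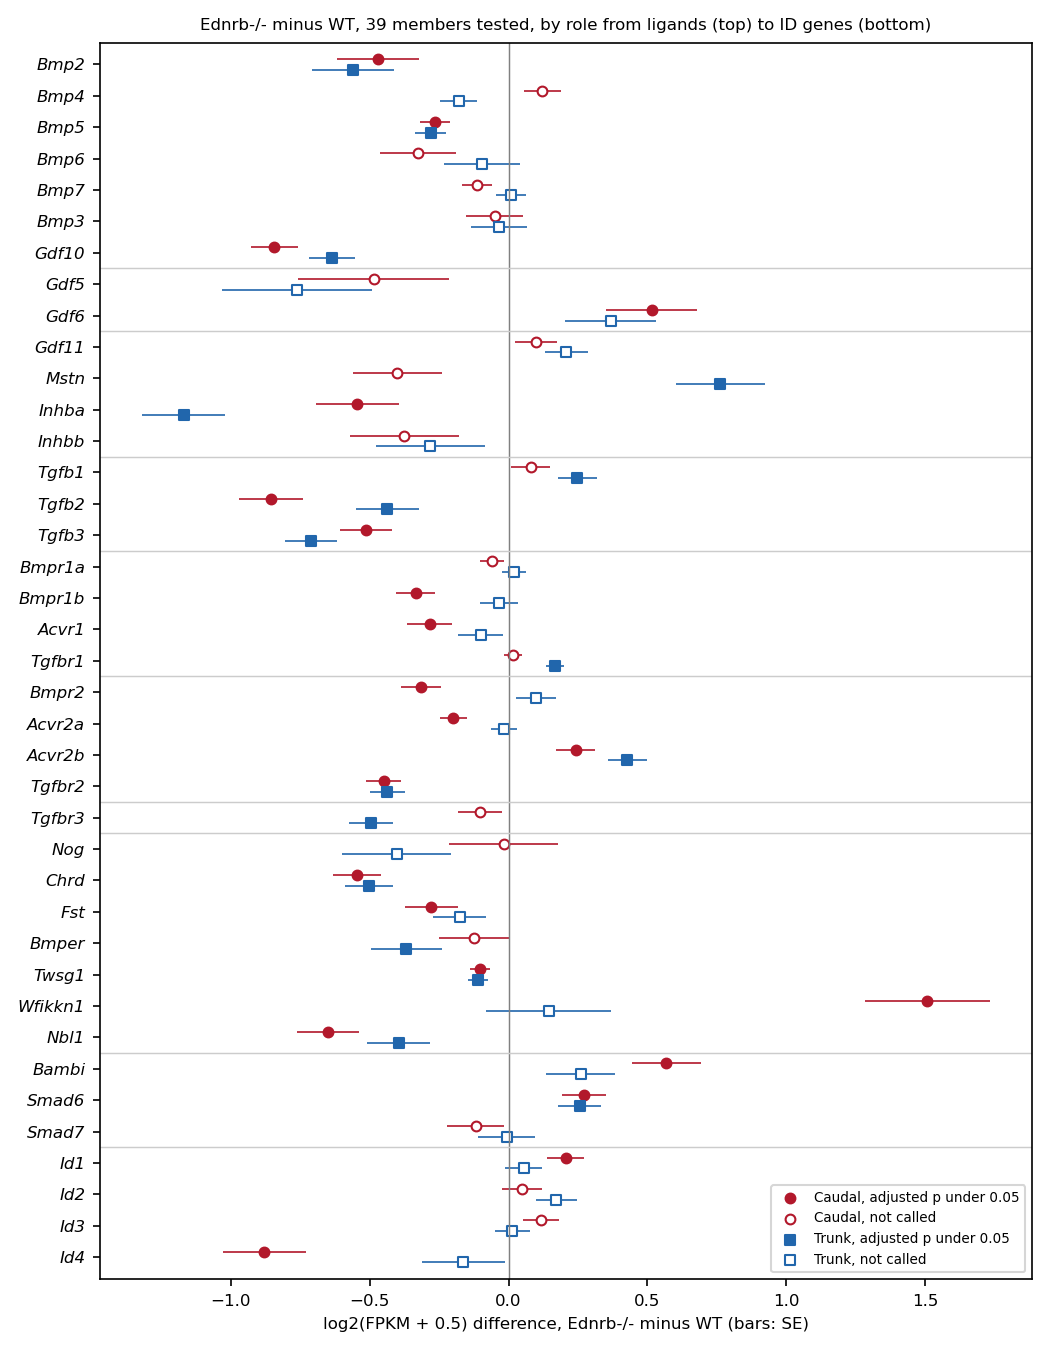
Difference in log2(FPKM + 0.5), Ednrb-/- minus WT, for the 39 genes tested, with bars of 1 standard error; circles are the caudal region and squares the trunk, and filled marks passed an adjusted p of 0.05. Most filled marks lie left of 0 (16 of 22 caudal, 12 of 17 trunk), and Wfikkn1 in the caudal region lies farthest to the right at 1.51.

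Among the BMP genes, the strongest change was in Gdf10 (also called Bmp3b; chr14:33645544-33659940, plus strand, mm39), whose product is an atypical BMP-like ligand. Caudal levels were 2.45, 2.21, 2.77 and 2.35 FPKM in Ednrb-/- libraries, against 4.55, 4.33, 5.49 and 4.79 FPKM in WT libraries. Every Ednrb-/- library lay below every WT library, a difference of -0.84 ± 0.08 (adjusted p = 5.7e-06). Trunk levels were 5.08, 4.86, 5.89 and 4.55 FPKM in Ednrb-/- libraries, against 8.87, 8.31, 8.08 and 7.44 FPKM in WT libraries. The groups were again apart, with a difference of -0.64 ± 0.08 (adjusted p = 0.00013).

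Bmp5, a ligand known for its role in skeletal elements of the mouse ear and sternum, fell in both regions by a smaller step. Its means were 3.50 ± 0.27 FPKM in Ednrb-/- and 4.30 ± 0.21 FPKM in WT caudal libraries (-0.26 ± 0.05, adjusted p = 0.0012). In the trunk they were 4.92 ± 0.28 FPKM in Ednrb-/- and 6.08 ± 0.069 FPKM in WT libraries (-0.28 ± 0.05, adjusted p = 0.0017). Neither pair of groups overlapped.

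Bmp2 (chr2:133394079-133404805, plus strand), a ligand of bone and heart development, was a low gene. Trunk levels were 1.25, 0.827, 1.65 and 0.920 FPKM in Ednrb-/- libraries, against 1.92, 2.34, 1.39 and 2.08 FPKM in WT libraries. The highest Ednrb-/- library lay above the lowest WT library, and the difference was -0.56 ± 0.15 (adjusted p = 0.012). In the caudal region the means were 1.25 ± 0.14 FPKM in Ednrb-/- and 1.93 ± 0.22 FPKM in WT libraries, without overlap (-0.47 ± 0.15, adjusted p = 0.018). That caudal call was lost without WT caudal replicate 4 (-0.43, adjusted p = 0.052), without the 3 mixed libraries (-0.41, adjusted p = 0.051) and under quantile normalization (-0.35, adjusted p = 0.067).

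The other BMP genes did not pass in either region as deposited. Bmp4, the dorsal and ventral mesoderm ligand and the most abundant of them, averaged 15.0 ± 0.62 FPKM in Ednrb-/- and 13.8 ± 1.30 FPKM in WT caudal libraries, with 13.7 ± 1.24 FPKM in Ednrb-/- and 15.6 ± 0.77 FPKM in WT trunk libraries. Its differences had opposite signs, 0.12 ± 0.07 in the caudal region and -0.18 ± 0.07 in the trunk, with adjusted p of 0.17 and 0.065. The trunk difference was called as lower without Ednrb-/- trunk replicate 3 (-0.23, adjusted p = 0.03), without the 3 mixed libraries (-0.23, adjusted p = 0.046), and under quantile and listed-read scaling (adjusted p = 0.042 and 0.036). Bmp7, needed for kidney and eye, had 8.22 ± 0.25 FPKM in Ednrb-/- and 8.94 ± 0.50 FPKM in WT caudal libraries, without overlap (-0.11 ± 0.05, adjusted p = 0.11), and a trunk difference of 0.01 ± 0.05. It passed as lower in the caudal region under TPM scaling (-0.21, adjusted p = 0.0083) and listed-read scaling (-0.18, adjusted p = 0.019). Bmp6 and Bmp3 lay between 0.43 and 1.49 FPKM in all 16 libraries, with adjusted p from 0.068 to 0.84 in the genotype comparisons. Bmp6 did not overlap between the caudal groups (-0.33 ± 0.14, adjusted p = 0.068). It passed as lower there under TPM scaling (-0.39, adjusted p = 0.031), under listed-read scaling (-0.37, adjusted p = 0.04) and without Ednrb-/- caudal replicate 1 (-0.40, adjusted p = 0.038).

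Of the GDF ligands of joints, limbs and dorsal neural tube, Gdf6 passed in the caudal test, and none passed in the trunk. Gdf6 (chr4:9844372-9862345, plus strand) marks developing joints and dorsal structures, and it rose in the caudal region. It had 0.730, 0.889, 0.547 and 0.805 FPKM in Ednrb-/- libraries, against 0.507, 0.310, 0.263 and 0.400 FPKM in WT libraries. The groups did not overlap (0.52 ± 0.16, adjusted p = 0.019), although the adjusted p was 0.059 without Ednrb-/- caudal replicate 2 (0.46) and 0.052 without WT caudal replicate 3 (0.46). In the trunk the means were 1.51 ± 0.20 FPKM in Ednrb-/- and 1.09 ± 0.42 FPKM in WT libraries, with overlap (adjusted p = 0.11), and passed without WT trunk replicate 1 (0.50, adjusted p = 0.031). Limb bud markers moved with it in the caudal region, where 4 of 6 rose and their summed level was 29.7 to 35.9 FPKM in Ednrb-/- against 15.2 to 29.3 FPKM in WT libraries. Most tailbud and endothelial markers rose there too, while most neuron, skeletal muscle, cartilage and macrophage markers fell. The part of these cell types in the result was not tested.

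Gdf5, the joint ligand, rested on few reads (3 to 103 a library). It reached 0.5 FPKM in 4 libraries, all of them WT, and so passed the filter only through WT groups. It averaged 0.105 ± 0.047 FPKM in Ednrb-/- trunk and 0.541 ± 0.20 FPKM in WT trunk libraries, groups that did not overlap (-0.76 ± 0.27, adjusted p = 0.051). The difference passed with a pseudocount of 0.1 (-1.6, adjusted p = 0.04), with voom on reads (-2.3, adjusted p = 0.013), under quantile and listed-read scaling (adjusted p = 0.043 and 0.048), in a fit of the trunk groups alone (adjusted p = 0.0099) and without WT trunk replicate 3 (-0.91, adjusted p = 0.036). Gdf7, a roof plate ligand, did not pass the filter, since 1 library of 16 reached 0.5 FPKM. Its means were 0.320 ± 0.18 FPKM in Ednrb-/- and 0.354 ± 0.049 FPKM in WT caudal libraries (two-sided exact permutation p = 0.771). In the trunk they were 0.263 ± 0.10 FPKM in Ednrb-/- and 0.206 ± 0.042 FPKM in WT libraries (two-sided exact permutation p = 0.343). The smallest p that 70 assignments allow is 0.0286.

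Activin and myostatin genes gave both a fall and a rise. Inhba (chr13:16186436-16206206, plus strand), the beta-A subunit of activin A, had the largest fall of the 39 genes in the trunk on the log2(FPKM + 0.5) scale. It reached 0.5 FPKM in 6 libraries, all of them WT, and so was tested only through the groups where it is high. It had 0.323, 0.357, 0.476 and 0.167 FPKM in Ednrb-/- trunk libraries, against 1.27, 1.51, 1.27 and 1.36 FPKM in WT trunk libraries. The groups lay far apart, with a difference of -1.17 ± 0.15 (adjusted p = 9.3e-05) on 43 to 124 reads in Ednrb-/- and 306 to 386 reads in WT libraries. Caudal levels were 0.127, 0.0664, 0.171 and 0.162 FPKM in Ednrb-/- libraries, against 0.560, 0.321, 0.222 and 0.638 FPKM in WT libraries. These groups did not overlap either (-0.55 ± 0.15, adjusted p = 0.0082), and the added 0.5 FPKM makes the log2 difference understate the change of so low a gene.

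Mstn (chr1:53100799-53107238, plus strand) encodes myostatin, the secreted brake on muscle growth. In the trunk it rose, with 8.37, 8.50, 6.85 and 9.51 FPKM in Ednrb-/- libraries, against 4.96, 4.36, 5.30 and 4.10 FPKM in WT libraries. Each Ednrb-/- library lay above each WT library (0.76 ± 0.16, adjusted p = 0.0031). Caudal levels were 5.55, 3.89, 6.36 and 4.40 FPKM in Ednrb-/- libraries, against 5.96, 6.66, 9.45 and 5.40 FPKM in WT libraries. These groups overlapped, and the difference of -0.40 ± 0.16 did not pass (adjusted p = 0.056), though it did without Ednrb-/- caudal replicate 3 (-0.51, adjusted p = 0.021) or WT caudal replicate 4 (-0.50, adjusted p = 0.03). It also passed as lower under TPM scaling (-0.49, adjusted p = 0.021) and listed-read scaling (-0.46, adjusted p = 0.032). The same held with voom on reads (-0.43, adjusted p = 0.043) and without the 3 mixed libraries (-0.51, adjusted p = 0.033). The trunk rise passed in every alternative recorded for the trunk. The calls were thus opposite under TPM scaling, listed-read scaling and voom, and without the 3 mixed libraries. For fits that left out a caudal library, the trunk difference was not recorded.

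Skeletal muscle markers fell in both regions, 6 of 6 in the caudal region and 5 of 6 in the trunk. Their summed level was 67.4 to 91.8 FPKM in Ednrb-/- caudal against 167 to 175 FPKM in WT caudal libraries, and 208 to 222 FPKM in Ednrb-/- trunk against 295 to 370 FPKM in WT trunk libraries. In the trunk Mstn was thus higher in Ednrb-/- libraries in which the summed muscle markers were lower, and the part of muscle content in the result was not tested. Gdf11, the ligand that patterns the axial skeleton and is closest in sequence to myostatin, was abundant and did not pass. It averaged 26.8 ± 1.80 FPKM in Ednrb-/- and 25.0 ± 1.98 FPKM in WT caudal libraries, and 22.3 ± 1.06 FPKM in Ednrb-/- and 19.3 ± 2.32 FPKM in WT trunk libraries (adjusted p = 0.32 and 0.057). The trunk difference passed as higher with voom on reads (0.21, adjusted p = 0.038), without Ednrb-/- trunk replicate 3 (0.24, adjusted p = 0.049) and without WT trunk replicate 3 (0.28, adjusted p = 0.014). Inhbb averaged 0.0365 ± 0.0275 FPKM in Ednrb-/- and 0.201 ± 0.103 FPKM in WT caudal libraries, and it did not pass in either region (-0.38 and -0.28, adjusted p = 0.14 and 0.32). It passed as lower in the caudal region with a pseudocount of 0.1 (-1.08, adjusted p = 0.026) and with voom on reads (-2.44, adjusted p = 0.034).

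All 3 TGF-beta ligand genes changed in the trunk, where 25.1% of all genes tested passed. Tgfb1 went upwards, and Tgfb2 and Tgfb3 went downwards. Tgfb2 (chr1:186354989-186438186, minus strand), the ligand of heart, skeletal and neural crest development, was the most abundant. Caudal levels were 7.31, 6.60, 8.26 and 6.54 FPKM in Ednrb-/- libraries, against 13.9, 13.4, 10.5 and 16.2 FPKM in WT libraries. The groups stood apart, at -0.85 ± 0.11 (adjusted p = 4.8e-05). In the trunk the libraries had 14.9, 14.0, 17.1 and 12.7 FPKM in Ednrb-/- embryos, against 18.1, 21.7, 19.0 and 20.9 FPKM in WT embryos, also without overlap (-0.44 ± 0.11, adjusted p = 0.012).

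Tgfb3 (chr12:86103519-86125815, minus strand), the ligand of palate and lung development, fell in both regions. In the trunk it had 6.30, 5.78, 6.27 and 5.74 FPKM in Ednrb-/- libraries, against 9.46, 10.5, 9.89 and 10.9 FPKM in WT libraries. No library of one group reached the other (-0.71 ± 0.09, adjusted p = 0.00011). Its caudal levels were 4.62, 4.12, 4.61 and 4.62 FPKM in Ednrb-/- libraries, against 7.58, 6.82, 5.05 and 7.35 FPKM in WT libraries. Again the groups did not overlap (-0.51 ± 0.09, adjusted p = 0.00046).

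Tgfb1, the ligand best known from immune and vascular cells, rose in the trunk to 2.25 ± 0.20 FPKM in Ednrb-/- libraries, against 1.82 ± 0.19 FPKM in WT libraries (0.25 ± 0.07, adjusted p = 0.018). The groups overlapped, and the gene no longer passed on leaving out Ednrb-/- trunk replicate 4 (0.22, adjusted p = 0.057), nor without replicate 3 of the WT trunk (0.21, adjusted p = 0.056), without the 3 mixed libraries (0.24, adjusted p = 0.059) or in a fit of the trunk groups alone (adjusted p = 0.065). Its caudal means were 2.27 ± 0.072 FPKM in Ednrb-/- and 2.13 ± 0.11 FPKM in WT libraries (adjusted p = 0.4). Endothelial markers rose in the trunk for 2 of 5 genes, with a summed level of 50.9 to 52.3 FPKM in Ednrb-/- and 42.6 to 50.6 FPKM in WT libraries. Macrophage markers fell for 5 of 5 genes in both regions, with 8.83 to 11.4 FPKM in Ednrb-/- trunk and 13.9 to 18.4 FPKM in WT trunk libraries. The part of either cell type was not tested.

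Among type I receptors, the general BMP receptor gene Bmpr1a passed in neither region, at 34.2 ± 0.63 FPKM in Ednrb-/- and 35.6 ± 1.58 FPKM in WT caudal libraries and 37.5 ± 2.38 FPKM in Ednrb-/- and 37.0 ± 1.31 FPKM in WT trunk libraries (adjusted p = 0.31 and 0.79). Its 95% intervals reached from -0.15 to 0.04 in the caudal region and from -0.07 to 0.11 in the trunk, but under TPM scaling (-0.16, adjusted p = 0.017) and quantile normalization (-0.19, adjusted p = 0.013) it passed as lower in the caudal region. Bmpr1b, the BMP receptor of cartilage, fell in the caudal region to 5.92 ± 0.77 FPKM in Ednrb-/- libraries, against 7.55 ± 0.19 FPKM in WT libraries (-0.34 ± 0.07, adjusted p = 0.0012, no overlap). Acvr1, the receptor also called ALK2, fell there to 4.98 ± 0.49 FPKM in Ednrb-/- libraries, against 6.18 ± 0.69 FPKM in WT libraries (-0.28 ± 0.08, adjusted p = 0.01, with overlap). In the trunk neither passed (adjusted p = 0.77 and 0.39).

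Cartilage markers moved with Bmpr1b in the caudal region, where 6 of 6 fell and their sum was 72.1 to 81.8 FPKM in Ednrb-/- against 110 to 119 FPKM in WT libraries. Neuron, skeletal muscle and macrophage markers mostly fell there too, while most limb bud, tailbud and endothelial markers rose. Their part was not tested. Tgfbr1 rose in the trunk, with 53.2 ± 1.57 FPKM in Ednrb-/- against 47.4 ± 1.85 FPKM in WT libraries and no overlap (0.17 ± 0.03, adjusted p = 0.002). In the caudal region it lay at 50.2 ± 1.05 FPKM in Ednrb-/- and 49.7 ± 0.99 FPKM in WT libraries (0.01 ± 0.03, adjusted p = 0.75), a difference that was -0.12 under quantile normalization (adjusted p = 0.037).

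The 4 type II receptor genes all passed in the caudal region, with 3 fallen and 1 risen. A call was common there, as 41.6% of all genes tested passed. Tgfbr2, which binds TGF-beta itself, fell in both regions. Its caudal values were 3.27, 2.78, 3.11 and 3.14 FPKM in Ednrb-/- libraries, against 4.62, 4.27, 4.14 and 4.49 FPKM in WT libraries. Its trunk values were 3.70, 3.66, 3.71 and 3.11 FPKM in Ednrb-/- libraries, against 5.08, 5.21, 4.94 and 4.62 FPKM in WT libraries. Neither pair overlapped, with -0.45 ± 0.06 in the caudal region (adjusted p = 6e-05) and -0.44 ± 0.06 in the trunk (adjusted p = 2e-04).

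Acvr2b, a receptor for activins, GDF11 and myostatin, rose in both regions. It averaged 16.2 ± 1.32 FPKM in Ednrb-/- and 13.6 ± 0.60 FPKM in WT caudal libraries (0.24 ± 0.07, adjusted p = 0.011), a call lost under TPM scaling (0.14, adjusted p = 0.094). Its trunk means were 14.2 ± 1.28 FPKM in Ednrb-/- and 10.4 ± 0.76 FPKM in WT libraries (0.43 ± 0.07, adjusted p = 0.00053). The groups did not overlap in either region. Its relative Acvr2a fell in the caudal region to 14.4 ± 0.27 FPKM in Ednrb-/- libraries, against 16.6 ± 0.83 FPKM in WT libraries (-0.20 ± 0.05, adjusted p = 0.0038), and lay at 15.8 ± 0.79 FPKM in Ednrb-/- and 16.0 ± 1.00 FPKM in WT trunk libraries (adjusted p = 0.84).

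Bmpr2 (chr1:59802559-59918173, plus strand), the type II receptor devoted to BMPs, had 8.02, 7.13, 8.67 and 7.20 FPKM in Ednrb-/- caudal libraries, against 10.3, 9.46, 9.08 and 10.1 FPKM in WT caudal libraries. All 4 Ednrb-/- libraries were lower (-0.31 ± 0.07, adjusted p = 0.0025). The trunk gave 11.4, 10.0, 10.7 and 9.26 FPKM in Ednrb-/- libraries, against 8.78, 9.83, 10.1 and 9.81 FPKM in WT libraries, which overlapped (0.10 ± 0.07, adjusted p = 0.34). Tgfbr3, the betaglycan co-receptor that presents TGF-beta2 and binds inhibin, fell in the trunk to 3.34 ± 0.24 FPKM in Ednrb-/- libraries, against 4.93 ± 0.62 FPKM in WT libraries (-0.50 ± 0.08, adjusted p = 0.00049, no overlap). In the caudal region it lay at 2.96 ± 0.27 FPKM in Ednrb-/- and 3.22 ± 0.18 FPKM in WT libraries (adjusted p = 0.32).

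**Figure D3:**
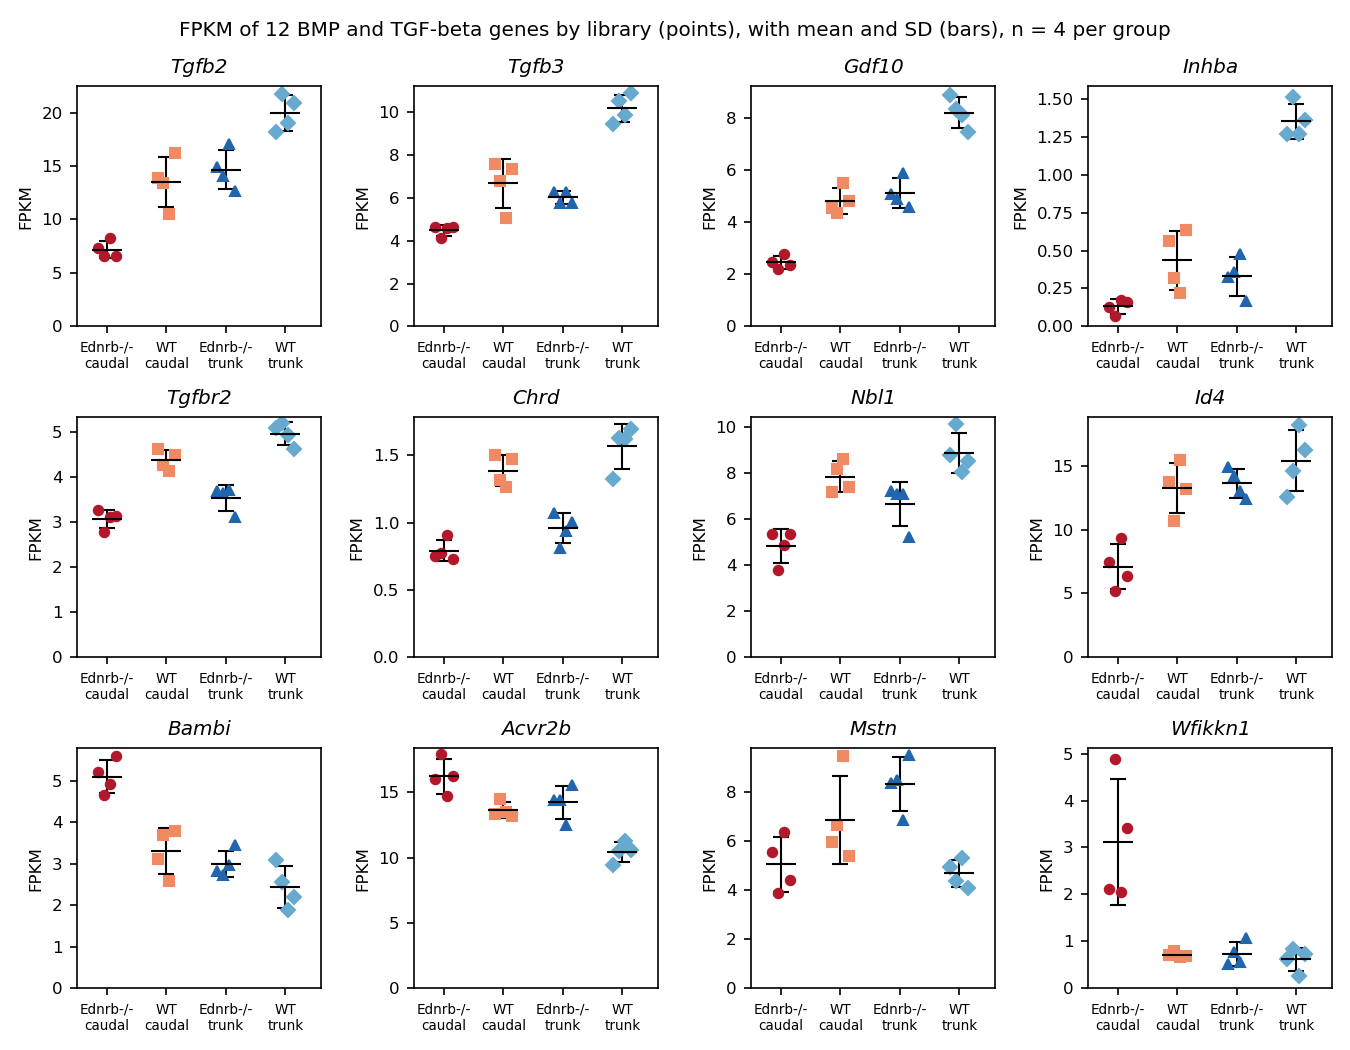
FPKM of 12 of the genes in each of the 16 libraries (points), with the mean and SD of 4 libraries as bars, for Ednrb-/- caudal, WT caudal, Ednrb-/- trunk and WT trunk on axes that start at 0. Tgfb2, Tgfb3, Gdf10, Inhba, Tgfbr2, Chrd and Nbl1 lie lower in Ednrb-/- than in WT libraries of the same region, Acvr2b lies higher, Id4 is lowest in Ednrb-/- caudal (5.16 to 9.32 FPKM), and Mstn has its highest mean in Ednrb-/- trunk (8.31 FPKM).

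Of 7 secreted binding proteins, 4 fell and 1 rose in the caudal region (71.4% called, against 41.6% of all genes). In the trunk 4 of 7 fell (57.1% called, against 25.1%). The calls that held in every alternative were those of Chrd, Nbl1 and Wfikkn1 in the caudal region and of Chrd in the trunk. Chrd (chr16:20551877-20561134, plus strand) encodes chordin, an inhibitor of BMP2 and BMP4. It had 0.755, 0.778, 0.909 and 0.729 FPKM in Ednrb-/- caudal libraries, against 1.5, 1.32, 1.26 and 1.47 FPKM in WT caudal libraries. The trunk gave 1.08, 0.812, 0.941 and 1.01 FPKM in Ednrb-/- libraries, against 1.32, 1.63, 1.63 and 1.69 FPKM in WT libraries. Both pairs were fully apart, with -0.55 ± 0.09 in the caudal region (adjusted p = 0.00015) and -0.50 ± 0.09 in the trunk (adjusted p = 0.00073).

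Nbl1 (chr4:138809595-138820304, minus strand), the DAN-family BMP antagonist, had 5.34, 3.77, 4.85 and 5.35 FPKM in Ednrb-/- caudal libraries, against 7.15, 8.15, 8.59 and 7.37 FPKM in WT caudal libraries. These did not overlap (-0.65 ± 0.11, adjusted p = 0.00032). Its trunk means were 6.64 ± 0.95 FPKM in Ednrb-/- and 8.86 ± 0.88 FPKM in WT libraries (-0.40 ± 0.11, adjusted p = 0.018). It no longer passed in the trunk when Ednrb-/- trunk replicate 4 was left out (-0.29, adjusted p = 0.058), nor without replicate 2 of the WT trunk (-0.34, adjusted p = 0.061).

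Wfikkn1 (chr17:26096602-26099832, minus strand) encodes a multidomain secreted protein that binds myostatin and GDF11. It had the largest difference of the 39 genes on the log2(FPKM + 0.5) scale, which shrinks the differences of low genes. With voom on reads the caudal difference of Inhbb was -2.44, while that of Wfikkn1 was at most 2.02 in any alternative. Caudal levels were 2.11, 4.89, 2.04 and 3.42 FPKM in Ednrb-/- libraries, against 0.706, 0.787, 0.668 and 0.685 FPKM in WT libraries. Every Ednrb-/- library lay above every WT library, on 185 to 438 reads in Ednrb-/- and 62 to 73 reads in WT libraries (1.51 ± 0.22, adjusted p = 1e-04). Trunk levels were 0.514, 0.776, 0.551 and 1.07 FPKM in Ednrb-/- libraries, against 0.616, 0.839, 0.272 and 0.739 FPKM in WT libraries, which overlapped (0.14 ± 0.22, adjusted p = 0.69). Tailbud markers rose in the caudal region for 4 of 6 genes, with a sum of 16.9 to 40.6 FPKM in Ednrb-/- against 3.98 to 22.4 FPKM in WT libraries. In trunk libraries that sum was 2.09 to 2.60 FPKM in Ednrb-/- and 1.94 to 2.22 FPKM in WT, where 1 and 2 of the 6 genes were at 0 in every library. The part of tailbud content was not tested.

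Follistatin, encoded by Fst, binds activin, and it fell in the caudal region to 3.53 ± 0.44 FPKM in Ednrb-/- libraries, against 4.38 ± 0.42 FPKM in WT libraries (-0.28 ± 0.10, adjusted p = 0.029, with overlap). Its call was lost without Ednrb-/- caudal replicate 1 or 3 or WT caudal replicate 2 or 3 (-0.26 to -0.22, adjusted p from 0.067 to 0.092) and without the 3 mixed libraries (-0.23, adjusted p = 0.15). It was also lost without a filter (adjusted p = 0.06), under quantile normalization (-0.21, adjusted p = 0.11) and with the replicate block (adjusted p = 0.051). Bmper, the crossveinless-2 homolog, fell in the trunk to 4.30 ± 0.50 FPKM in Ednrb-/- libraries, against 5.68 ± 0.45 FPKM in WT libraries (-0.37 ± 0.13, adjusted p = 0.046). It no longer passed when Ednrb-/- trunk replicate 1, 2 or 4 or any 1 WT trunk library was left out (-0.40 to -0.30, adjusted p from 0.062 to 0.14). Nor did it pass with a pseudocount of 0.1 (adjusted p = 0.053), without a filter (adjusted p = 0.095) or under quantile normalization (adjusted p = 0.06). The replicate block (adjusted p = 0.054), a Y-linked covariate (adjusted p = 0.11) and leaving out the 3 mixed libraries (adjusted p = 0.062) also lost the call. In the caudal region Bmper passed as lower without WT caudal replicate 3 (-0.27, adjusted p = 0.039).

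Twsg1, a chordin partner, changed little: it averaged 26.3 ± 0.46 FPKM in Ednrb-/- and 28.3 ± 0.79 FPKM in WT caudal libraries (-0.10 ± 0.04, adjusted p = 0.028). In the trunk it averaged 26.8 ± 1.41 FPKM in Ednrb-/- and 28.9 ± 0.38 FPKM in WT libraries (-0.11 ± 0.04, adjusted p = 0.033). The caudal call was lost without Ednrb-/- caudal replicate 1 or 4 or WT caudal replicate 1 or 4 (adjusted p from 0.052 to 0.082), and the trunk call without Ednrb-/- trunk replicate 3 or 4 or WT trunk replicate 1, 2 or 3 (adjusted p from 0.064 to 0.1). Without the 3 mixed libraries both calls were lost (adjusted p = 0.071 and 0.12). The trunk call was also lost without a filter (adjusted p = 0.05), in a fit of the trunk groups alone (adjusted p = 0.077) and with a Y-linked covariate (adjusted p = 0.075). Nog, which encodes noggin, was variable, with 1.62 ± 0.28 FPKM in Ednrb-/- and 1.68 ± 0.56 FPKM in WT caudal libraries and 1.42 ± 0.52 FPKM in Ednrb-/- and 2.01 ± 0.49 FPKM in WT trunk libraries (adjusted p = 0.95 and 0.15). It passed as lower in the trunk without Ednrb-/- trunk replicate 3 (-0.57, adjusted p = 0.038).

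Inhibitors inside the receiving cell or at its receptors went up where they changed. Bambi (chr18:3507923-3516404, plus strand) encodes a pseudoreceptor without a kinase. It had 5.22, 4.66, 4.91 and 5.60 FPKM in Ednrb-/- caudal libraries, against 3.12, 3.70, 2.59 and 3.78 FPKM in WT caudal libraries. The groups did not overlap (0.57 ± 0.12, adjusted p = 0.0017). In the trunk it averaged 2.99 ± 0.32 FPKM in Ednrb-/- and 2.44 ± 0.52 FPKM in WT libraries (0.26 ± 0.12, adjusted p = 0.14), and it passed there without WT trunk replicate 1 (0.36, adjusted p = 0.036). Smad7, which blocks TGF-beta and BMP receptors alike, passed in neither region (adjusted p = 0.39 and 0.97), at 5.17 ± 0.16 FPKM in Ednrb-/- and 5.71 ± 0.90 FPKM in WT caudal libraries.

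Smad6, which mainly blocks BMP receptors, rose in the caudal region to 6.17 ± 0.61 FPKM in Ednrb-/- libraries, against 5.03 ± 0.51 FPKM in WT libraries (0.27 ± 0.08, adjusted p = 0.012, with overlap). In the trunk it rose to 5.23 ± 0.14 FPKM in Ednrb-/- libraries, against 4.32 ± 0.43 FPKM in WT libraries (0.26 ± 0.08, adjusted p = 0.028, no overlap). The caudal call was lost under TPM scaling (0.17, adjusted p = 0.092) and when scaled to the reads in listed genes (0.21, adjusted p = 0.053). The trunk call was lost without Ednrb-/- trunk replicate 2 or 4 or WT trunk replicate 3 or 4 (adjusted p from 0.058 to 0.086). That call was also lost without a filter (adjusted p = 0.054) and when scaled to the reads in listed genes (0.22, adjusted p = 0.057). The start-site window of Smad6 holds the GTCTAGAC palindrome shown above.

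The 4 ID genes did not move together. Id4 (chr13:48414704-48419502, plus strand), known for its role in the timing of neural differentiation, fell in the caudal region. It had 7.48, 5.16, 9.32 and 6.35 FPKM in Ednrb-/- caudal libraries, against 13.7, 10.7, 15.5 and 13.2 FPKM in WT caudal libraries. No Ednrb-/- library reached the lowest WT library (-0.88 ± 0.15, adjusted p = 0.00028). The trunk gave 14.9, 14.2, 13.0 and 12.4 FPKM in Ednrb-/- libraries, against 12.6, 14.6, 18.2 and 16.3 FPKM in WT libraries, with overlap (-0.16 ± 0.15, adjusted p = 0.47). Neuron markers moved with it, with 7 of 8 fallen and 1 risen in the caudal region, and a sum of 132 to 218 FPKM in Ednrb-/- against 266 to 359 FPKM in WT libraries. They were not alone there: skeletal muscle and cartilage markers fell for 6 of 6 genes each, macrophage for 5 of 5 and melanoblast for 3 of 4. Limb bud and tailbud markers rose for 4 of 6 genes each, and endothelial for 4 of 5. In the trunk the neuron sum was 296 to 339 FPKM in Ednrb-/- and 314 to 399 FPKM in WT libraries, with 1 gene fallen and 1 risen. The part of neuron content, or of the other cell types, was not tested.

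Id1, a classic BMP target, rose in the caudal region to 39.2 ± 4.44 FPKM in Ednrb-/- libraries, against 33.8 ± 1.27 FPKM in WT libraries (0.21 ± 0.07, adjusted p = 0.02). The groups met at 35.6 FPKM, the level of the lowest Ednrb-/- and of the highest WT library, and the call was lost without Ednrb-/- caudal replicate 2 (0.14, adjusted p = 0.072) or 4 (0.18, adjusted p = 0.062), or without WT caudal replicate 1 (0.19, adjusted p = 0.054). It was also lost under TPM scaling (0.10, adjusted p = 0.16), quantile normalization (0.07, adjusted p = 0.32), scaling to the reads in listed genes (0.14, adjusted p = 0.078) and a fit of the caudal groups alone (adjusted p = 0.055). Id2 and Id3 passed in neither region, with differences between 0.01 and 0.17 and adjusted p from 0.097 to 0.9. The trunk groups of Id2 did not overlap, with 43.7 to 47.2 FPKM in Ednrb-/- against 37.6 to 43.4 FPKM in WT libraries. In a fit of the trunk groups alone Id2 passed as higher (0.17, adjusted p = 0.037). Id1 did not pass in the trunk either, at 36.5 ± 1.75 FPKM in Ednrb-/- and 35.1 ± 1.96 FPKM in WT libraries (adjusted p = 0.59).

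Whether the genotype difference itself differed between the regions was tested as an interaction, the caudal difference minus the trunk one. Of the 39 genes 3 passed (7.69%), against 6.76% of all genes tested, a share near the background. Mstn had -1.16 ± 0.23 (adjusted p = 0.0097), Wfikkn1 1.36 ± 0.32 (adjusted p = 0.022) and Bmpr2 -0.41 ± 0.10 (adjusted p = 0.027). Mstn passed in every alternative tried. Wfikkn1 was lost without Ednrb-/- caudal replicate 4 (1.30, adjusted p = 0.051), without Ednrb-/- trunk replicate 1 (1.28, adjusted p = 0.05) and without a filter (adjusted p = 0.056). Bmpr2 was lost without Ednrb-/- caudal replicate 2 or 4, Ednrb-/- trunk replicate 1 or 3, WT caudal replicate 1 or 4, or WT trunk replicate 1 (-0.40 to -0.37, adjusted p from 0.051 to 0.061). Without a filter it was lost too (adjusted p = 0.059). Tgfbr3 and Id4 fell just short, at 0.39 ± 0.11 and -0.72 ± 0.21 (adjusted p = 0.05 and 0.054). Tgfbr3 passed with a pseudocount of 1, a filter of 1 FPKM, quantile normalization, the replicate block and voom, and without Ednrb-/- caudal replicate 3, Ednrb-/- trunk replicate 4 or WT trunk replicate 3 (0.36 to 0.45, adjusted p from 0.034 to 0.049). Id4 passed with a filter of 1 FPKM, TPM scaling, the replicate block and voom, without the 3 mixed libraries, and without Ednrb-/- caudal replicate 3, WT caudal replicate 2 or WT trunk replicate 3 (-0.97 to -0.72, adjusted p from 0.014 to 0.048). Leaving out 1 library also brought in Bmpr1b (Ednrb-/- caudal replicate 3, -0.37, adjusted p = 0.018), Tgfb2 (WT caudal replicate 3, -0.53, adjusted p = 0.041), Bmp4 (WT caudal replicate 4, 0.35, adjusted p = 0.041) and Tgfbr1 (WT trunk replicate 3, -0.17, adjusted p = 0.035).

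Between the regions of WT embryos, trunk minus caudal, 16 of the 39 genes passed (41%), against 18% of all genes tested. Higher in trunk were 9 (9.69% of all genes) and lower in trunk 7 (8.35% of all genes). Ligands led: on the log2(FPKM + 0.5) scale Inhba had the largest difference at 1.01 ± 0.15 (adjusted p = 0.00028), with 1.27 to 1.51 FPKM in trunk and 0.222 to 0.638 FPKM in caudal libraries. As said above, Inhba passed the filter only through WT libraries, among them all 4 of the trunk. Inhbb followed, with 0.465, 1.56, 0.573 and 0.917 FPKM in WT trunk libraries, against 0.280, 0.0514, 0.257 and 0.217 FPKM in WT caudal libraries. All 4 trunk libraries were higher (0.92 ± 0.20, adjusted p = 0.0044). Inhbb reached 0.5 FPKM in 6 of the 16 libraries, all from the trunk. It was thus tested only through the groups where it is high.

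Gdf6 had 1.55, 1.34, 0.795 and 0.690 FPKM in WT trunk libraries, against 0.507, 0.310, 0.263 and 0.400 FPKM in WT caudal libraries, again apart (0.84 ± 0.16, adjusted p = 0.0023). Gdf10 (0.72 ± 0.08, adjusted p = 3.9e-05), Tgfb3 (0.58 ± 0.09, adjusted p = 0.00053), Tgfb2 (0.56 ± 0.11, adjusted p = 0.0036) and Bmp5 (0.46 ± 0.05, adjusted p = 4.2e-05) were also higher in trunk, each without overlap. So were Tgfbr3, with 4.55, 5.76, 4.39 and 5.03 FPKM in trunk against 3.30, 3.41, 2.97 and 3.19 FPKM in caudal libraries (0.54 ± 0.08, adjusted p = 0.00028), and Bmper. Bmper had 5.51, 5.34, 5.52 and 6.35 FPKM in WT trunk libraries, against 4.28, 3.83, 2.44 and 3.69 FPKM in WT caudal libraries (0.63 ± 0.13, adjusted p = 0.0034).

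Lower in the WT trunk was Fst above all, with 2.83, 2.46, 2.38 and 2.61 FPKM in trunk libraries, against 3.99, 4.56, 4.88 and 4.07 FPKM in caudal libraries. The groups were apart (-0.67 ± 0.10, adjusted p = 0.00023). Gdf11 (-0.37 ± 0.08, adjusted p = 0.0037), Acvr2b (-0.37 ± 0.07, adjusted p = 0.0019) and Bmp7 (-0.24 ± 0.05, adjusted p = 0.0061) were lower too. The other lower calls were Mstn (-0.48 ± 0.16, adjusted p = 0.048), Bambi (-0.37 ± 0.12, adjusted p = 0.046) and Id2 (-0.23 ± 0.07, adjusted p = 0.036), each lost on leaving out single libraries. Mstn was lost without any 1 of the 8 WT libraries except WT caudal replicate 4 (adjusted p from 0.052 to 0.15). Bambi was lost without WT caudal replicate 1, 2 or 4 or WT trunk replicate 2, 3 or 4 (adjusted p from 0.063 to 0.14). Id2 was lost without WT caudal replicate 1, 2 or 4 or WT trunk replicate 2 or 4 (adjusted p from 0.066 to 0.11). Without the 3 mixed libraries 13 genes passed, 9 higher and 4 lower in trunk, and of all genes 1098 and 814. Leaving out 1 library brought in Smad6 (WT caudal replicate 3, -0.26, adjusted p = 0.046), Bmp4 and Gdf5 (WT caudal replicate 4, 0.22 and 0.68, adjusted p = 0.032 and 0.014) and Tgfb1 (WT trunk replicate 2, -0.24, adjusted p = 0.033).

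The groups did not overlap for 17 of the 40 genes between the WT regions (10 above and 7 below), against 21.3% of all genes tested. Gdf7 was one of them, with 0.206 ± 0.042 FPKM in trunk and 0.354 ± 0.049 FPKM in caudal WT libraries (two-sided exact permutation p = 0.0286, adjusted p = 0.114 over 4 tests). Roof plate markers were lower in the WT trunk for 4 of 7 genes, with sums of 55.9 to 76.6 FPKM in trunk and 65.6 to 91.3 FPKM in caudal libraries. Other marker lists moved between the WT regions too: skeletal muscle was higher in trunk for 5 of 6 genes, nephric and gonad for 4 of 5, limb bud for 3 of 6 (1 lower) and heart for 2 of 4. Lower in trunk were tailbud markers for 5 of 6 genes, melanoblast markers for 4 of 4, endothelial markers for 2 of 5 and cartilage markers for 3 of 6 (2 higher). Their part in the region results was not tested.

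In Ednrb-/- embryos 23 of the 39 genes passed between the regions (59%), against 36.2% of all genes tested, with 15 higher in trunk (17.3% of all genes) and 8 lower (18.9% of all genes). TPM scaling moved the members to 17 higher and 3 lower, and all genes to 3936 higher and 1945 lower, against 2982 and 3252 as deposited. Without the 3 mixed libraries 11 were higher and 5 lower, and of all genes 2536 and 2562. Wfikkn1 was lower in the trunk by a difference of -1.51 ± 0.22 (adjusted p = 0.00013), with 0.514 to 1.07 FPKM in Ednrb-/- trunk against 2.04 to 4.89 FPKM in Ednrb-/- caudal libraries. Higher in trunk by the largest steps were Inhbb (1.02 ± 0.20, adjusted p = 0.001), Tgfb2 (0.98 ± 0.11, adjusted p = 2e-05), Id4 (0.92 ± 0.15, adjusted p = 0.00026) and Gdf10 (0.92 ± 0.08, adjusted p = 2e-06). Of these, Inhbb passed the filter only through its trunk libraries. Mstn was higher in trunk here at 0.68 ± 0.16 (adjusted p = 0.0041), while it was lower in trunk in WT embryos, and the interaction above is the test of that difference. Groups did not overlap for 19 of the 40 genes (13 above and 6 below), against 33.8% of all genes tested. Between these regions neuron markers were higher in trunk for 7 of 8 genes (1 lower), skeletal muscle for 6 of 6 and heart for 3 of 4, while tailbud markers were lower for 6 of 6, endothelial for 5 of 5, melanoblast for 3 of 4 and limb bud for 3 of 6 (1 higher). Their part was not tested.

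Of these 23 calls, 14 held in every alternative that tested the gene (Inhbb is not tested at a filter of 1 FPKM), and 7 were lost on leaving out single libraries. Bmp3, Smad6 and Tgfbr2 were lost without most of the 8 Ednrb-/- libraries. For Bmp3 these were caudal replicates 1, 2 and 4 and trunk replicates 1 to 4 (adjusted p from 0.05 to 0.17). For Smad6 they were caudal replicates 2, 3 and 4 and trunk replicates 1 to 4 (adjusted p from 0.053 to 0.15), and for Tgfbr2 caudal replicates 2, 3 and 4 and trunk replicates 1, 2 and 3 (adjusted p from 0.055 to 0.13). Acvr2b was lost without caudal replicate 1, 2 or 4 or trunk replicate 1, 2 or 3 (adjusted p from 0.071 to 0.17). Bmpr1a was lost without caudal replicate 1, 2 or 4 or trunk replicate 1 or 3 (adjusted p from 0.052 to 0.1), Bmper without caudal replicate 3 or 4 or trunk replicate 1, 2 or 3 (adjusted p from 0.058 to 0.087), and Id3 without caudal replicate 2 or 4 or trunk replicate 1 or 4 (adjusted p from 0.071 to 0.1). Inhba, Tgfbr1 and Acvr2a came in as higher without trunk replicate 4 (0.49, 0.098 and 0.15, adjusted p = 0.02, 0.039 and 0.037), and Bmp7 as lower without trunk replicate 3 (-0.17, adjusted p = 0.029).

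**Figure D4:**
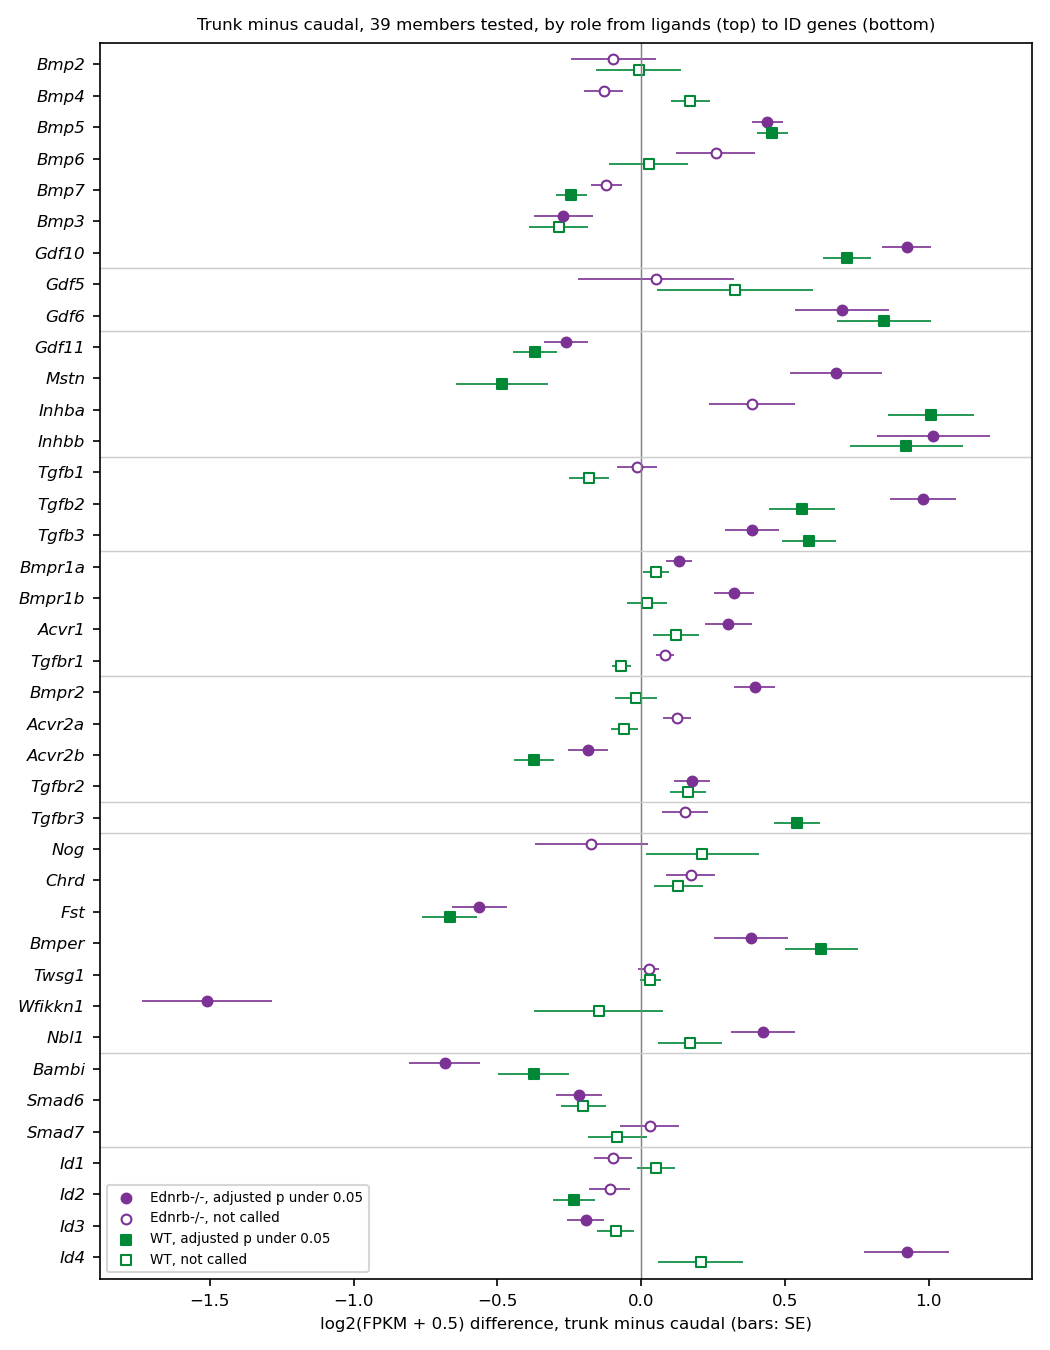
Difference in log2(FPKM + 0.5), trunk minus caudal, for the 39 genes tested, with bars of 1 standard error; circles are Ednrb-/- and squares WT embryos, and filled marks passed an adjusted p of 0.05. Inhba (1.01 in WT), Inhbb, Gdf6, Gdf10 and the TGF-beta genes Tgfb2 and Tgfb3 lie to the right, Fst lies to the left in both genotypes, and Wfikkn1 lies far left in Ednrb-/- embryos (-1.51).

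Other genes of the pathway came from 7 lists of 86 genes. Of all genes tested, 41.6% were called in the caudal region and 25.1% in the trunk. Of 13 other secreted antagonists, 11 were tested, and 5 fell and 2 rose in the caudal region (63.6% called), while 3 fell and 1 rose in the trunk (36.4% called). Wfikkn2, the relative of Wfikkn1, fell in both regions, to 0.181 ± 0.047 FPKM in Ednrb-/- caudal against 0.919 ± 0.41 FPKM in WT caudal libraries and 0.611 ± 0.093 FPKM in Ednrb-/- trunk against 1.79 ± 0.21 FPKM in WT trunk libraries (-1.02 and -1.04, adjusted p = 8.4e-05 and 2e-04). Sost, which encodes sclerostin, rose in both (0.80 and 1.07, adjusted p = 0.0012 and 0.00032). Crim1 fell in the caudal region (-0.36, adjusted p = 3e-04), as did Kcp (-0.53, adjusted p = 0.0014) and Grem1 (-0.34, adjusted p = 0.0033). Cer1, a Nodal and BMP inhibitor of early mesoderm, was the other caudal riser (1.21, adjusted p = 0.024). In the trunk Fstl1 (-0.43, adjusted p = 4.3e-05) and Dand5 (-0.48, adjusted p = 0.0095) completed the falls.

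Proteases and latent binding proteins that free or store ligands fell for 5 of 13 tested genes in each region, with 1 risen in each. The share called was 46.2% in each region, near the 41.6% of all genes in the caudal region and above the 25.1% in the trunk. Ltbp3, which tethers latent TGF-beta, fell in both (-0.82 and -0.97, adjusted p = 3e-04 and 2e-04), and so did Bmp1, the protease that cuts chordin and procollagen (-0.44 and -0.37, adjusted p = 0.00024 and 0.002). Thbs1, an activator of latent TGF-beta, fell by 0.73 on the log2 scale in the caudal region and by 0.32 in the trunk (adjusted p = 4.7e-05 and 0.028). Ltbp4 fell in both (-0.32 and -0.33, adjusted p = 0.036 and 0.047) and Itgav in the caudal region (-0.62, adjusted p = 0.036). Pcsk5 fell in the trunk (-0.37, adjusted p = 0.0019), where Itgb8 rose (0.34, adjusted p = 0.034), and Lrrc32 rose in the caudal region (0.46, adjusted p = 0.0014).

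Other receptors and co-receptors had 3 of 7 tested genes fallen in the caudal region and 0 in the trunk, where 2 had an unadjusted p under 0.05 in limma. The caudal share of 42.9% was near the 41.6% of all genes, and the trunk share of 0% lay below 25.1%. The 3 were Rgmb (-0.85, adjusted p = 2.4e-05), Rgma (-0.37, adjusted p = 0.00072) and Neo1 (-0.13, adjusted p = 0.0059). RGM proteins are BMP co-receptors and neogenin is their receptor. Of 16 other ligand genes 1 passed the filter, Inha, the alpha subunit of inhibin, and it fell in both regions (-0.35 and -0.39, adjusted p = 0.033 and 0.031).

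Of the SMADs and their regulators 15 of 16 were tested, with 3 fallen and 2 risen in the caudal region and 1 fallen and 1 risen in the trunk. These shares, 33.3% and 13.3%, lay below those of all genes (41.6% and 25.1%). Smad1 fell in both regions (-0.25 and -0.17, adjusted p = 0.0027 and 0.041) and Smad4 rose in both (0.11 and 0.09, adjusted p = 0.0073 and 0.032), all small steps. Smad3 rose in the caudal region (0.21, adjusted p = 0.004), and Pmepa1, a TGF-beta target that sequesters receptor SMADs, fell there (-0.62, adjusted p = 0.0014), as did Skil (-0.27, adjusted p = 0.011).

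Known target genes were listed by branch. Of 9 other BMP targets, 3 rose and 1 fell in the caudal region, and 1 rose in the trunk. The caudal share of 44.4% was near the 41.6% of all genes, and the trunk share of 11.1% lay below 25.1%. Msx1, a homeobox gene of limb and dorsal tissue, rose in both (0.55 and 0.78, adjusted p = 0.004 and 0.00083), Gata3 and Tbx3 rose in the caudal region (0.65 and 0.55, adjusted p = 0.0018 and 0.027), and Atoh8 fell there (-0.24, adjusted p = 0.033). Of 8 TGF-beta targets 6 were tested, and 4 fell in each region while Fn1, fibronectin, rose in the caudal one (0.26, adjusted p = 0.037). That is 83.3% called in the caudal region and 66.7% in the trunk. The fallen genes were the matrix genes Postn (-1.21 and -1.22, adjusted p = 4.8e-05 and 0.00014), Tgfbi (-0.84 and -0.64, adjusted p = 2.1e-05 and 0.00049), Col1a1 (-0.87 and -0.76, adjusted p = 0.00046 and 0.0028) and Col3a1 (-0.48 and -0.59, adjusted p = 0.00038 and 0.00021). These genes also respond to other signals, and matrix-producing cell content was not tested.

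Of the marker lists not yet given, melanoblast genes fell for 3 of 4 tested genes in each region, with a sum of 5.76 to 6.78 FPKM in Ednrb-/- caudal against 11.1 to 12.0 FPKM in WT caudal libraries. Heart markers showed 2 of 4 fallen and 1 risen in the caudal region and 1 each in the trunk. Nephric and gonad markers showed 2 risen and 2 fallen of 5 in the caudal region and 2 fallen in the trunk, and erythroid markers 1 risen and 2 fallen of 5 in each region. Roof plate and dorsal neural tube markers showed 2 fallen of 7 in the caudal region, and 2 risen and 1 fallen in the trunk. In the caudal region 4 of 5 endothelial markers rose. In the trunk 2 of 6 cartilage and 1 of 6 limb bud markers fell, and of 6 tailbud markers 0 passed in limma, with 0 at an unadjusted p under 0.05. Liver markers did not pass the filter, with sums of at most 2.27 FPKM in any library. The part of these cell types in the results above was not tested.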

How the data were processed

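Total RNA from the trunk or caudal region of embryos was extracted with TRIzol and sequenced as Illumina libraries, per the labels' protocols. The submitters' processing notes name fastp, HISAT2 2.0.5, featureCounts 1.5.0-p3 and mouse build mm39. Neither the strand setting nor the annotation release was stated. The deposited values are FPKM per gene, made by the authors, and all 16 columns matched 1 sample each.

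From these, log2(FPKM + 0.5) was fitted with limma 3.58.1 (R 4.3.3, mean-variance trend) over all 16 libraries, for genes at 0.5 FPKM or more in at least 4 libraries. P-values were adjusted by Benjamini-Hochberg over the 17205 genes tested, with a threshold of 0.05. The added 0.5 makes fold changes of low genes too small. Whole reads per gene could be recovered from the FPKM steps for 100% of values (within 0.01 of a whole read), and the read numbers quoted come from these. Replicate libraries differed beyond sampling noise (chi-square per degree of freedom 5.79 to 17.8). Gdf7, below the filter, was tested by exact permutation.

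The members and lists were chosen with earlier results of these data known. Library values are given for members called between genotypes with an absolute log2 difference of at least 0.5, for those called in the interaction and for the 10 widest of those called between WT regions, and additionally for Tgfbr2, chosen after its values were seen. Other pathway genes named are up to 4 a list by smallest adjusted p in either genotype comparison, plus the members of small counts, named after their values were seen; 1 gene of these lists is counted but not reported here. Alternatives tried were pseudocounts of 0.1 and 1, no filter, a filter of 1 FPKM, TPM, median-of-ratios, quantile and listed-read scaling, the compared groups alone, the replicate block, a Y-linked covariate, voom on whole reads, and leaving out 3 mixed libraries or each library in turn.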

Additional observations from a re-analysis of the deposited data

Results flagged for a closer look

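Of 160 sets of 4 libraries (40 genes in 4 groups), 9 held a library that stood apart from the other 3, where about 8 would by chance at 1 in 20. The ratio given is the gap to the nearest library over the range of the group, set against the critical value of Dixon's test. In Ednrb-/- caudal libraries, replicate 2 was highest for Bmp3 (0.910 FPKM, nearest 0.613, ratio 0.841) and for Nog (2.04 FPKM, nearest 1.52, ratio 0.839), and lowest for Tgfb3 (4.12 FPKM, nearest 4.61, ratio 0.978). Replicate 3 of that group was highest for Gdf5 (0.217 FPKM, nearest 0.0585, ratio 0.879). In WT caudal libraries, replicate 4 was highest for Gdf5 (1.21 FPKM, nearest 0.212, ratio 0.875). In Ednrb-/- trunk libraries, replicate 4 was lowest for Tgfbr2 (3.11 FPKM, nearest 3.66, ratio 0.917) and for Nbl1 (5.22 FPKM, nearest 7.06, ratio 0.918). In WT trunk libraries, replicate 3 was highest for Bmpr1b (8.25 FPKM, nearest 7.50, ratio 0.960) and replicate 4 lowest for Twsg1 (28.4 FPKM, nearest 29.0, ratio 0.835).

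The genotype difference differed between the caudal region and the trunk, by the interaction test, for Mstn (-1.16), Bmpr2 (-0.41) and Wfikkn1 (1.36).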

How the results depend on the processing

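Of the calls among the 39 genes, 15 of 22 in the caudal genotype comparison, 12 of 17 in the trunk one, 13 of 16 between WT regions, 14 of 23 between Ednrb-/- regions and 1 of 3 in the interaction (Mstn) held in every alternative that tested the gene; Inhbb, in both region counts, is not tested at a filter of 1 FPKM. With 1 library left out, the number of members called ranged from 20 to 22, 12 to 19, 13 to 16, 16 to 23 and 1 to 6 in the same order, and that of all genes from 6012 to 6982, 3355 to 4106, 2153 to 3122, 4875 to 6264 and 585 to 1488. The interaction called 3 members and 1163 genes as reported. It called 5 members with a pseudocount of 1 (1140 genes), with a filter of 1 FPKM (1211 genes) and without the 3 mixed libraries (1021 genes). It called 6 with quantile normalization (1122 genes), with the replicate block (1128 genes) and with voom (1572 genes). With TPM scaling it called 7 members and 1429 genes, and without a filter 1 member and 571 genes. The cause was not tested. Without the 3 mixed libraries 1912 genes were called between WT regions, against 3103. Tgfbr1 in the caudal genotype comparison turned to -0.12 (adjusted p = 0.037) under quantile normalization, and the cause was not tested. Voom on the whole reads called 7168 genes in the caudal and 4714 in the trunk genotype comparison, against 7164 and 4321. Sign changes of values not called, 116 in all, were counted as no change. Deviations from the group means of libraries with the same number were weakly correlated (from -0.0836 to 0.109). With 4 libraries a group, this cannot tell whether a number also marks a shared embryo, litter or batch. With the replicate block 6 members rose and 15 fell in the caudal region (3743 and 3400 of all genes), and 5 and 11 in the trunk (2118 and 2231 of all genes). Fitting the compared groups alone gives no interaction. Genes with few reads, such as Inhbb (2 to 10 reads in Ednrb-/- caudal libraries) and Gdf5, are limited by depth.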
